A study of Mus musculus with 6 samples.

Results

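Expression in the mitral valve was compared between 25 and 8 weeks of age, with both K/B.g7 and B.g7 mice at each age, in 2 groups of cells chosen by marker genes (gates). K/B.g7 mice carry the KRN T cell receptor transgene together with the g7 haplotype of the major histocompatibility complex (MHC), and develop autoantibody-driven arthritis and inflammation of the heart valves. B.g7 mice share the g7 haplotype, lack the transgene and were the controls. The 4 libraries were K/B.g7 at 8 weeks, K/B.g7 at 25 weeks, B.g7 at 8 weeks and B.g7 at 25 weeks, 1 of each, out of 6 libraries in the series. Both genotypes were also collected at 3 weeks, and those 2 libraries serve below as values for context only. The labels name no treatment. The number of mice pooled for each is not stated either. With 1 library per genotype and age, the 2 genotypes stand as the replicates of age. A p-value thus sets the change with age against how far that change differs between the genotypes, a spread pooled in part over all genes. That spread holds the scatter of single libraries, which may be technical, and any true difference between the genotypes. Pairs of values below give 8 weeks first and 25 weeks second.

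Of the 48060 barcodes deposited for the 4 libraries, 44025 passed with 300 genes or more and no more than 10% of UMIs from mitochondrial genes (UMIs are unique molecular identifiers, 1 per captured RNA molecule), against 53526 that passed in the whole series. Fibroblasts were barcodes in which Dcn, Col1a1 and Col1a2 made up at least 1% of UMIs and which held no UMI of Pecam1 or Ptprc. Endothelium had at least 3 UMIs of Pecam1, Cdh5, Emcn and Egfl7, no UMI of Ptprc and less than 1% from the 3 matrix genes. The fibroblast gate held 28032 cells, namely 5768 and 13537 of K/B.g7 and 2908 and 5819 of B.g7. The endothelial gate held 3093 cells, namely 531 and 1051 of K/B.g7 and 1203 and 308 of B.g7. Pdgfra and Tie1, which the gates had not used, followed the names. The 10 genes of a fibroblast list that includes Dpt, Lum and Pdgfra summed to between 40613 and 58602 CPM (a gene's UMIs scaled to the same total in every library and gate) in fibroblasts and to between 6056 and 8075 CPM in endothelium. That list is longer than the set of its markers outside the gate, so the gate itself may set much of this contrast. The sum is therefore no check on the names. Pdgfra alone was at 171 to 389 CPM in fibroblasts and at 51.0 to 93.6 CPM in endothelium. Tie1, a receptor of endothelium, was at 188 to 266 CPM in endothelium and at 0.225 to 2.02 CPM in fibroblasts.

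Valve interstitial fibroblasts make and maintain the collagen, proteoglycan and elastin layers of the leaflet, and a single layer of endothelium covers it on the blood side. Interferon-gamma, made mainly by T and natural killer cells, acts on both cell types. It induces the chemokines CXCL9 and CXCL10, guanylate-binding proteins, MHC class I with the immunoproteasome and, through the coactivator CIITA, MHC class II. Type I interferons act on an overlapping set of genes. Contractile genes such as Acta2 and Myl9 are targets of serum response factor and mark smooth muscle cells, pericytes and activated fibroblasts.

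Several features of the libraries moved with age. Summed UMIs were between 13693402 and 44002327 per library in fibroblasts and between 2210477 and 5253322 in endothelium. The median per fibroblast was 4254.5 and 2991 UMIs in K/B.g7 and 4744.5 and 5873 UMIs in B.g7. Per endothelial cell it was 3310 and 2438 UMIs in K/B.g7 and 3409 and 4511.5 UMIs in B.g7. Unless stated, the shares of cells with marker UMIs below were counted without bringing cells to an equal depth. A cell with more UMIs meets such a cut more readily. Each library held cells with Xist and cells with Y-linked RNA, and the share with Xist among sexed fibroblasts was lower at 25 weeks in both genotypes, at 66.5% against 34.2% in K/B.g7 and 97.7% against 72.7% in B.g7. The share of endothelium among kept barcodes was 5.70% and 5.22% in K/B.g7 and 20.8% and 3.51% in B.g7. Between 12 and 66 barcodes were shared by a pair of the 4 libraries. In sums over cells, fewer cells that make an RNA and less RNA per cell cannot be told apart. The part of sex makeup, depth and cell makeup in the results below was not tested, and values with these held more alike stand beside some of them.

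Each gate was tested over all its genes with genotype as a block (edgeR's quasi-likelihood test, Benjamini-Hochberg adjusted p under 0.05). That leaves 1 residual degree of freedom. An exact permutation test of 2 against 2 libraries, shuffled without regard to genotype, cannot go below p = 0.333. Whether the change with age differed between the genotypes could not be tested, since that term would use up the last degree of freedom.

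In endothelium, genes of antigen presentation and interferon-gamma were lower at 25 weeks than at 8 weeks in both genotypes, and 3 contractile genes were higher. Of 11447 genes tested, 12 passed the threshold (0.105%), 3 of them higher (0.0262%) and 9 lower (0.0786%). At an unadjusted p under 0.05 there were 787 (6.88%), which divide into 452 higher (3.95%) and 335 lower (2.93%). The genes that fell were the chemokines Cxcl9 and Cxcl10, the class II genes H2-Aa, H2-Ab1, H2-Eb1 and H2-DMb1, the class I genes H2-Q6 and H2-Q7, and the immunoglobulin light chain Igkc. Those that rose were Acta2, Tpm2 and Myl9. With RLE scaling in place of TMM 1 gene passed, and without the 10% of cells with the most UMIs none did in edgeR (489 at an unadjusted p under 0.05).

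Cxcl9, which draws T cells through CXCR3, was at 54.8 CPM in K/B.g7 at 8 weeks and had no UMI at 25 weeks, where 3 UMIs are the limit that a count of 0 allows, so it was at least 70.5-fold higher at 8 weeks. In B.g7 it was at 106 CPM (559 UMIs) at 8 weeks and at 0.452 CPM (1 UMI) at 25 weeks. The gene lies on chromosome 5 at 92321347 to 92328079 (mm10), and its adjusted p was 0.0048. Cxcl10, a second ligand of CXCR3 on chromosome 5 at 92346638 to 92348889, went from 120 to 13.0 CPM in K/B.g7 and from 103 to 24.9 CPM in B.g7. Its log2 fold change was -2.72 ± 0.33 (SE, n = 2 libraries an age; edgeR adjusted p = 0.0492). Both chemokines were therefore high in the 8-week libraries of both genotypes, with no overlap between the ages.

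H2-Eb1 encodes the beta chain of the class II molecule I-E (chromosome 17, 34305867 to 34316674). It was at 149 CPM at 8 weeks and 10.9 CPM at 25 weeks in K/B.g7, and at 79.2 and 10.9 CPM in B.g7, a log2 fold change of -3.45 ± 0.32 (SE; adjusted p = 0.0275). The 2 libraries of 25 weeks had the same level to 3 digits. H2-Aa and H2-Ab1 encode the alpha and beta chains of I-A, on the same chromosome at 34282744 to 34287823 and 34257689 to 34269419. H2-Aa went from 113 to 6.74 CPM in K/B.g7 and from 67.8 to 10.4 CPM in B.g7 (log2 fold change -3.51 ± 0.37, SE; adjusted p = 0.0376). H2-Ab1 went from 177 to 15.8 CPM and from 98.0 to 19 CPM (-3.05 ± 0.33, SE; adjusted p = 0.0383). H2-DMb1, a chain of the chaperone that loads peptide onto class II, was low throughout, with 74 and 7 UMIs in K/B.g7 and 146 and 7 in B.g7 (30.0 to 1.81 CPM and 27.8 to 3.17 CPM; adjusted p = 0.0347). In each of the 4 genes both libraries of 8 weeks were above both of 25 weeks. The libraries at 3 weeks, which the test did not use, were lower still, with H2-Eb1 at 3.96 CPM in K/B.g7 and 1.44 CPM in B.g7.

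H2-Q6 and H2-Q7 are class I genes of the Q region and near-identical copies, so reads may have been split between them and their separate values are uncertain. H2-Q7 (chromosome 17, 35439155 to 35443773) was at 190 and 27.0 CPM in K/B.g7 and at 119 and 14.5 CPM in B.g7, with a log2 fold change of -3.02 ± 0.26 (SE; adjusted p = 0.0275). H2-Q6 (35424850 to 35430055) was at 166 and 23.1 CPM and at 109 and 20.8 CPM (-2.73 ± 0.26, SE; adjusted p = 0.0309). The classical class I gene H2-K1 did not pass, at 1705 and 648 CPM in K/B.g7 and 1713 and 554 CPM in B.g7 (-1.62 ± 0.26, SE; adjusted p = 0.119). Its level at each age was alike in the 2 genotypes. Psmb9, a catalytic subunit of the immunoproteasome, was at 129 and 43.5 CPM in K/B.g7 and 131 and 49.8 CPM in B.g7 (adjusted p = 0.107).

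Over whole lists, most members were lower. In the MHC class I list, 15 of 15 members tested had both 25-week libraries below both 8-week libraries, where 10.8% of all genes tested did, and 2 of 15 passed the threshold. Their median log2 fold change was -1.48, against -0.0048 over all genes tested. The 6 class II members tested were all lower without overlap, with a median of -3.25, and 4 passed. Of the 16 members of the interferon-gamma list 14 were lower without overlap, with a median of -1.43, and 2 passed. Among the members that did not pass, Igtp, a GTPase of cell-autonomous immunity, was at 68.6 and 14.3 CPM in K/B.g7 and at 44.4 and 15.4 CPM in B.g7 (adjusted p = 0.0874). Gbp2, a guanylate-binding protein, was at 123 and 45.6 CPM and at 105 and 36.6 CPM (adjusted p = 0.111).

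Of 17 type I interferon-stimulated genes tested in endothelium, 6 were lower and 2 higher without overlap, where 10.8% and 24% of all genes tested were. None passed, and the median log2 fold change was -0.31. Bst2, a membrane tether of budding virus particles that both interferon types induce, was at 365 and 244 CPM in K/B.g7 and at 523 and 283 CPM in B.g7 (adjusted p = 0.507). The difference between the 2 interferon lists was not tested.

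**Figure D1:**
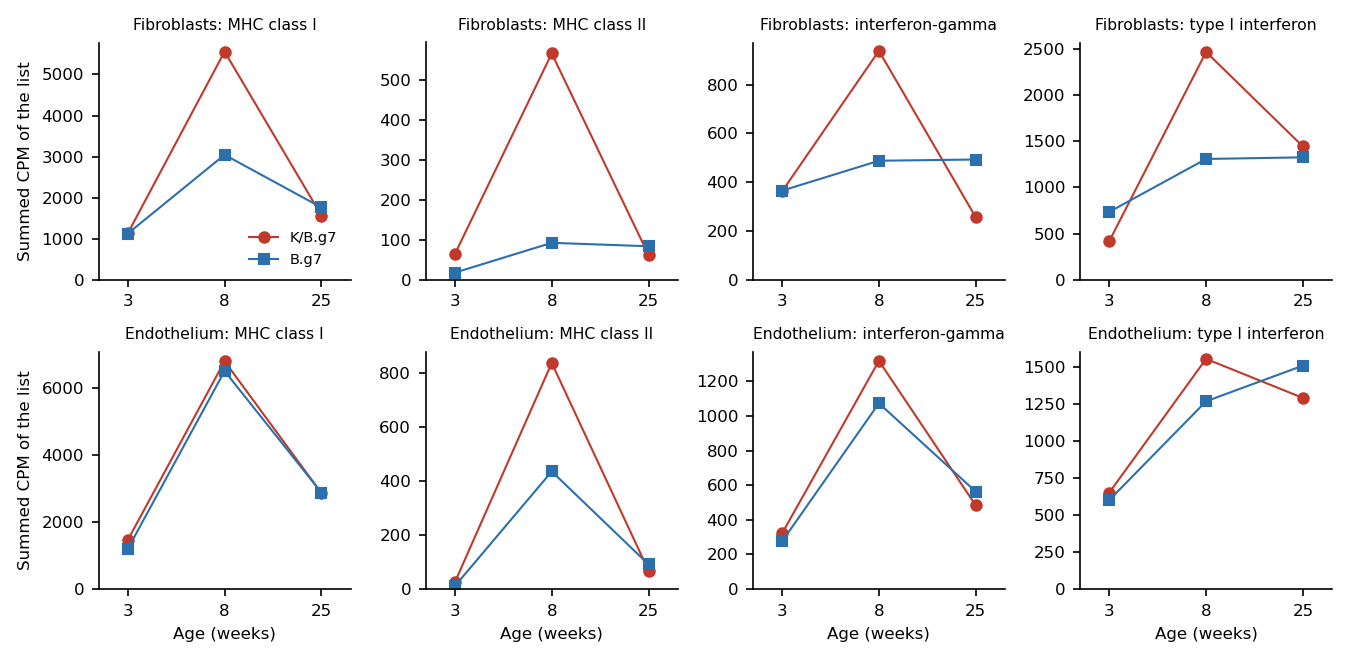
Summed CPM (vertical axis, from 0) of 4 gene lists against age in weeks (horizontal axis, even steps), in fibroblasts (top) and endothelium (bottom), with 1 point per library, red circles for K/B.g7 and blue squares for B.g7. In endothelium the MHC class I sum was 6800 and 6507 CPM at 8 weeks and 2863 and 2880 CPM at 25 weeks in K/B.g7 and B.g7, and in fibroblasts the K/B.g7 library of 8 weeks stood above the other 5 in all 4 lists.

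As sums over each list, endothelial MHC class I went from 6800 to 2863 CPM in K/B.g7 and from 6507 to 2880 CPM in B.g7, and at 3 weeks it was 1460 and 1195 CPM. Class II went from 835 to 67.7 CPM and from 435 to 90.9 CPM, with 25.3 and 11.1 CPM at 3 weeks. The plot of summed CPM by age shows these peaks at 8 weeks. The share of kept barcodes with a UMI of the leukocyte gene Ptprc, taken after thinning each cell to 1000 UMIs, was 3.76% at 8 weeks and 1.62% at 25 weeks in K/B.g7 and 2.50% and 2.95% in B.g7 (7.72%, 3.1%, 4.38% and 5.81% before thinning). The part of leukocytes in the endothelial values was not tested.

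The stretches of sequence below lie before the start of 4 genes with lower levels at 25 weeks in endothelium, and show which promoter motifs known from interferon-induced and MHC genes each holds. In the 250 bases before the start site, RefSeq promoters (GRCm38.p6) were searched on both strands for GAAA repeated after 2 free bases, a core of the interferon-stimulated response element, for TTCNNNGAA, the gamma-activated site, for CCAAT, which forms the Y box of MHC promoters, and for the CArG box of serum response factor. The first was found in 2.98% of 32851 promoters, the second in 7.02%, the third in 33.8% and the fourth in 1.47%. Of the interferon-gamma list 13 of 18 members had a promoter in the table, and 9 of these held the GAAA repeat. In the MHC class I list 11 of 13 held CCAAT, and in class II 4 of 5. Capitals mark the matches, each sequence runs 5′ to 3′ on the gene's strand and ends at the base before the start.
Cxcl10, chr5:92348890-92349139, minus strand: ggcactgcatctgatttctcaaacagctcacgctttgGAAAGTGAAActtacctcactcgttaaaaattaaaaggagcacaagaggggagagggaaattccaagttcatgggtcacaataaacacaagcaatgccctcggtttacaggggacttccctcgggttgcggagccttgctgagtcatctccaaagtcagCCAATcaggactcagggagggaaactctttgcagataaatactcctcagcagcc
Cxcl9, chr5:92328080-92328329, minus strand: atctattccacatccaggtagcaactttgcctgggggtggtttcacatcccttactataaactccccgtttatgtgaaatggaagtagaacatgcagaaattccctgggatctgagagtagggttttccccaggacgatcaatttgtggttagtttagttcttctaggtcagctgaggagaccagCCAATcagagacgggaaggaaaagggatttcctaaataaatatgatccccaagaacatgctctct
Igtp, chr11:58199306-58199555, plus strand: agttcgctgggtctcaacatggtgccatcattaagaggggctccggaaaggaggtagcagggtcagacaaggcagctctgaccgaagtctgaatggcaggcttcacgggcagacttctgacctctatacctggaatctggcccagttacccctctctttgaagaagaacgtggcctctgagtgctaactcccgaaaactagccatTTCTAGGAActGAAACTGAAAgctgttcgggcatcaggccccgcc
H2-Eb1, chr17:34305617-34305866, plus strand: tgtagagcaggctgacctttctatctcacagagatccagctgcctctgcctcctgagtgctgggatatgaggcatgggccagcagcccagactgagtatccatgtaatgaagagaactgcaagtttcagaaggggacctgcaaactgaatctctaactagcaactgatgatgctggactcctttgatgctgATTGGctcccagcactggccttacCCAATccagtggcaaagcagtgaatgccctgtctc
Cxcl10 holds the GAAA repeat and CCAAT, and Igtp holds TTCNNNGAA beside the GAAA repeat. H2-Eb1 has CCAAT once on each strand. Cxcl9 holds CCAAT alone among the 4 motifs in its window. A match is a description of letters and not evidence of binding.

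Other inflammatory genes of the endothelium were lower at 25 weeks without passing the threshold. Sele, the endothelial selectin that slows leukocytes on the vessel wall, was at 322 and 95.1 CPM in K/B.g7 and 240 and 110 CPM in B.g7 (log2 fold change -1.55 ± 0.27, SE; adjusted p = 0.139). Ptgs2, which encodes the inducible cyclooxygenase, was at 459 and 208 CPM and at 326 and 101 CPM (-1.52 ± 0.27, SE; adjusted p = 0.154). The integrin ligand Icam1 was at 545 and 254 CPM in K/B.g7 and 532 and 334 CPM in B.g7 (adjusted p = 0.360). In the leukocyte adhesion list 5 of 11 members tested were lower and 3 higher without overlap, beside 10.8% and 24% of all genes, and none passed. Complement had 5 of 10 members lower without overlap and none higher. Its C3, the central component, was at 213 and 57.0 CPM in K/B.g7 and 63.0 and 40.7 CPM in B.g7 (adjusted p = 0.335).

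Acta2, which encodes smooth muscle alpha-actin (chromosome 19, 34241090 to 34255590), was higher at 25 weeks, at 162 and 801 CPM at 8 and 25 weeks in K/B.g7 and 107 and 542 CPM in B.g7, a log2 fold change of 2.22 ± 0.26 (SE; edgeR adjusted p = 0.0487). The tropomyosin gene Tpm2 (chromosome 4, 43514711 to 43523765) was at 79.6 and 334 CPM and at 62.1 and 330 CPM (2.14 ± 0.25, SE; adjusted p = 0.0487). Myl9, a regulatory light chain of smooth muscle myosin (chromosome 2, 156775420 to 156781658), was at 63.7 and 331 CPM and at 69.7 and 301 CPM (2.14 ± 0.26, SE; adjusted p = 0.0487). For all 3, each 25-week library was above each 8-week library. The smooth muscle myosin heavy chain Myh11 did not pass, at 55.6 and 193 CPM in K/B.g7 and 32.2 and 194 CPM in B.g7 (adjusted p = 0.0789). Of the 20 genes of the contractile and TGF-beta list 19 were tested, and 10 were higher and 1 lower without overlap, where 24% of all genes were higher without overlap. Of the promoters of that list in the table, 1 of 11 held a CArG box, that of Myl9, shown here from 250 to 51 bases before the RefSeq start with the box in capitals.
Myl9, chr2:156775214-156775413, plus strand: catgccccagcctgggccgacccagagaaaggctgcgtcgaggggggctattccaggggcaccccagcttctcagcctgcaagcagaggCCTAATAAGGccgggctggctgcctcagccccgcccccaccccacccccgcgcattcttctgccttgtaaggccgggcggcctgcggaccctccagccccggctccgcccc

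Markers of mural cells, the pericytes and smooth muscle cells around vessels, were also at a higher level in the same sums. The mural list was at 334 and 620 CPM in K/B.g7 and 342 and 754 CPM in B.g7. Of its 10 members 6 were higher without overlap, where 24% of all genes tested were. No member was lower without overlap, at 0 in all 4 libraries or past the threshold. Among them Notch3, a receptor of mural cells, was at 6.49 and 20.7 CPM and at 9.33 and 48.0 CPM (adjusted p = 0.116), and Rgs5, a pericyte marker, at 47.5 and 83.5 CPM and at 42.6 and 147 CPM (adjusted p = 0.341). Cells of the endothelial gate with at least 2 UMIs of that list made up 21.8% and 16.2% in K/B.g7 and 22.9% and 29.2% in B.g7, with depth per cell not made equal. They held 89.7%, 88.3%, 94.8% and 97.7% of the Acta2 UMIs in the same order of libraries. Without these cells Acta2 was at 26.2 and 140 CPM in K/B.g7 and at 8.41 and 27.3 CPM in B.g7 (log2 fold change 2.00 ± 0.30, SE; adjusted p = 0.247), and Tpm2 at 25.6 and 56.1 CPM and at 9.86 and 14.2 CPM (0.78 ± 0.31, SE; adjusted p = 0.858). No gene of the endothelium passed without them in edgeR (603 at an unadjusted p under 0.05), and H2-Eb1 was then at 155 and 8.84 CPM in K/B.g7 and 63.5 and 14.2 CPM in B.g7 (adjusted p = 0.247).

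**Figure D2:**
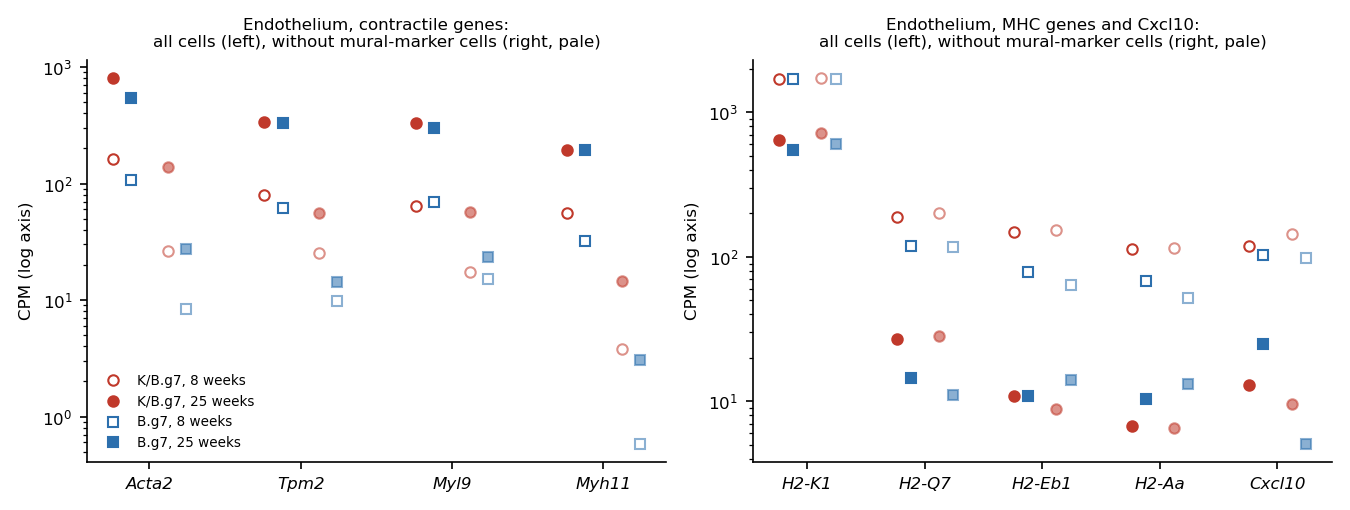
CPM on a log axis of 4 contractile genes (left panel) and of 5 immune genes (right panel) in endothelium, with 1 symbol per library, red circles for K/B.g7 and blue squares for B.g7, open at 8 weeks and filled at 25 weeks. For each gene the left group is all cells and the paler right group leaves out cells with at least 2 UMIs of mural markers: Acta2 dropped from between 107 and 801 CPM to between 8.41 and 140 CPM, while H2-K1 lay between 554 and 1713 CPM before and between 601 and 1725 CPM after.

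H2-Eb1 stayed lower at 25 weeks in every subset of the endothelium tried, while its call did not always hold. Cells with at least 2 UMIs of leukocyte markers were 12.2% and 4.76% of the K/B.g7 gate and 3.16% and 14.0% of the B.g7 gate. Without them H2-Eb1 was at 138 and 10.1 CPM in K/B.g7 and 75.0 and 12.8 CPM in B.g7 with an adjusted p of 0.163, and no gene passed (817 at an unadjusted p under 0.05). Cxcl9 at 8 weeks was then at 13.9 CPM in K/B.g7 and 78.1 CPM in B.g7, with no UMI at 25 weeks in either. In cells with Xist alone, H2-Eb1 was at 105 and 9.19 CPM and at 62.4 and 13.9 CPM (adjusted p = 0.0443). Among cells with a UMI of Npr3 or H19, markers of valvular and endocardial endothelium, it was at 85.7 and 8.94 CPM and at 71.6 and 4.58 CPM (log2 fold change -3.57 ± 0.35, SE; adjusted p = 0.0135). Those cells were 51.0% and 45.1% of the gate in K/B.g7 and 88.4% and 27.6% in B.g7.

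Igkc is the constant region of the kappa light chain and is made by B and plasma cells. It was at 5404 CPM in the K/B.g7 library of 8 weeks, at 5.70 CPM in that of 25 weeks, and at 6.28 and 0.905 CPM in B.g7 (adjusted p = 0.0487). A single barcode held 13165 of the 13315 Igkc UMIs of the first library. The value is therefore that of 1 barcode in 1 library.

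The makeup of the endothelial gate differed most in B.g7. Npr3, the natriuretic peptide clearance receptor of the valve surface, was at 651 and 759 CPM in K/B.g7 and at 1673 and 113 CPM in B.g7. The 7 lymphatic markers measured summed to 2286 and 2507 CPM in K/B.g7 and to 695 and 2941 CPM in B.g7. Among them Mmrn1, a secreted multimerin of lymphatic vessels, was at 645 and 722 CPM and at 91.2 and 789 CPM (adjusted p = 0.718). The part of this shift in the other results was not tested, apart from the values without lymphatic-marker cells, where 14 genes passed and H2-Eb1 had a log2 fold change of -3.03 ± 0.38 (SE; adjusted p = 0.0186).

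Genes that respond to flow and Notch were more often higher than lower at 25 weeks. Of 18 members tested 11 were higher without overlap and none lower, beside the 24% of all genes that were higher, and none passed. Hey2, a repressor downstream of Notch, was at 27.2 and 59.6 CPM in K/B.g7 and 16.9 and 53.8 CPM in B.g7 (log2 fold change 1.30 ± 0.26, SE; adjusted p = 0.207). Its upstream ligand gene Jag1 was at 139 and 228 CPM and at 85.3 and 174 CPM (adjusted p = 0.510). Npnt, a ligand of integrin alpha8 in basement membranes, was at 10.6 and 43.5 CPM in K/B.g7 and 5.90 and 29.0 CPM in B.g7 (2.06 ± 0.28, SE; adjusted p = 0.0789). Igf1, the insulin-like growth factor, was at 52.8 and 134 CPM and at 26.1 and 129 CPM (adjusted p = 0.138).

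In fibroblasts 2 genes of cartilage-like matrix, the smooth muscle myosin Myh11 and 2 genes that moved with mesothelial markers were higher at 25 weeks, and Nos2 was lower. Of 14442 genes tested 8 passed (0.0554%), 5 higher (0.0346%) and 3 lower (0.0208%) at 25 weeks, and 1152 had an unadjusted p under 0.05 (7.98%), 597 higher (4.13%) and 555 lower (3.84%). Those that rose were Chad, Cilp2, Myh11, Gpm6a and Lgals7, and those that fell were Nos2, Eef1a2 and Ighg1. Without genotype as a block none passed in edgeR (699 at an unadjusted p under 0.05), and DESeq2 called 130.

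**Figure D3:**
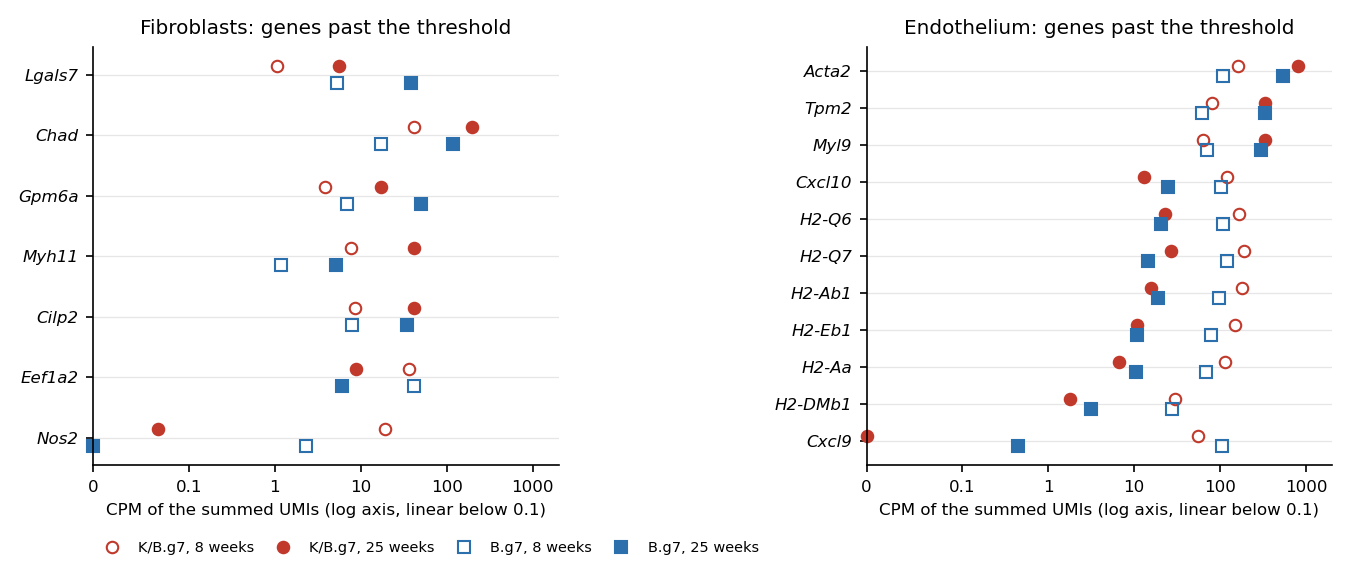
CPM of the genes past the threshold in fibroblasts (7 genes, left) and endothelium (11 genes, right) on an axis that is logarithmic above 0.1 and linear below it, with 1 symbol per library, red circles for K/B.g7 and blue squares for B.g7, open at 8 weeks and filled at 25 weeks. The immunoglobulin genes Ighg1 and Igkc are left out, and filled and open symbols do not overlap in any gene shown but Myh11 and, by a narrow margin, touch in Lgals7 (5.26 and 5.57 CPM).

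Chad encodes chondroadherin, a leucine-rich repeat protein of cartilage and of the load-bearing valve matrix (chromosome 11, 94565047 to 94569127). It was at 42.1 and 199 CPM at 8 and 25 weeks in K/B.g7 and at 17.3 and 120 CPM in B.g7, a log2 fold change of 2.45 ± 0.22 (SE; adjusted p = 0.0419). Both 25-week libraries were above both 8-week libraries, and at 3 weeks the level was 139 CPM in K/B.g7 and 73.2 CPM in B.g7. Cilp2, a cartilage intermediate layer protein (chromosome 8, 69880369 to 69887687), was at 8.66 and 41.9 CPM in K/B.g7 and at 7.89 and 34.7 CPM in B.g7 (2.15 ± 0.16, SE; adjusted p = 0.0383). It too was at a higher level at 3 weeks than at 8, with 103 and 63.3 CPM. A list of 21 chondrogenic and osteogenic genes summed to 10723 and 8875 CPM in K/B.g7 and to 11687 and 10880 CPM in B.g7. Of its 17 members tested 5 were higher and 1 lower without overlap, where 17.7% and 12.1% of all genes were. Of 10 markers of Wif1 and Chad interstitial fibroblasts, 5 were higher and 0 lower without overlap. In the fit 8 of these 10 were above 0 and 2 below, among them Cnmd (-0.93, adjusted p = 0.387). Chad and Cilp2 kept their direction over the alternatives run. Without mural-marker cells Chad was at 46.8 and 217 CPM and at 21.4 and 146 CPM with an adjusted p of 0.0838, and in cells with Xist alone at 43.5 and 134 CPM and at 12.9 and 163 CPM (adjusted p = 0.102), while the adjusted p of Cilp2 was 0.0838 and 0.0109 in these subsets.

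Markers of the Cilp and Thbs4 fibroblasts of the valve were higher as a list. All 8 members were higher without overlap, where 17.7% of all genes tested were, 1 passed, and their median log2 fold change was 0.91 against -0.0023 over all genes. Cilp was at 130 and 265 CPM in K/B.g7 and 63.8 and 195 CPM in B.g7 (adjusted p = 0.206). Thbs4, a thrombospondin of tendon and heart matrix, was at 67.8 and 115 CPM and at 36.6 and 76.5 CPM (adjusted p = 0.273). The collagen-binding proteoglycan Fmod was at 84.8 and 326 CPM and at 121 and 280 CPM (1.52 ± 0.25, SE; adjusted p = 0.153).

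Among collagens, leaving out the 2 that define the gate, 15 of 17 were higher without overlap, none lower and none past the threshold, with a median log2 fold change of 0.78. The list summed to 4815 and 7095 CPM in K/B.g7 and 3670 and 6407 CPM in B.g7, below the 13772 and 13001 CPM of 3 weeks. Col11a1, a fibrillar collagen that nucleates thin fibrils, was at 9.03 and 27.4 CPM and at 4.53 and 17.6 CPM (1.71 ± 0.19, SE; adjusted p = 0.0795). Col5a3 was at 62.8 and 130 CPM in K/B.g7 and 60.2 and 118 CPM in B.g7 (adjusted p = 0.216). The levels at 25 weeks were therefore above 8 weeks and below 3 weeks for the list as a sum.

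Other matrix groups were less uniform. Of 18 proteoglycan genes 10 were higher without overlap and none lower, and of 17 elastic fibre genes 7 were higher and 1 lower, where 17.7% of all genes were higher and 12.1% lower. Eln, which encodes elastin, was at 88.8 and 268 CPM in K/B.g7 and 106 and 262 CPM in B.g7 (1.39 ± 0.20, SE; adjusted p = 0.120), after 2071 and 890 CPM at 3 weeks. Kera, which encodes the small proteoglycan keratocan, was at 1.65 and 9.41 CPM and at 1.39 and 11.6 CPM (2.70 ± 0.27, SE; adjusted p = 0.0557). Gpc3, a glypican that binds growth factors at the cell surface, was at 28.2 and 64.7 CPM and at 37.3 and 104 CPM (adjusted p = 0.120). Enzymes of collagen synthesis and crosslinking had 9 of 21 members higher and 1 lower without overlap, against the same shares. None of these 3 groups had a member past the threshold.

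Myh11 (chromosome 16, 14194535 to 14291372) was at 7.78 and 41.5 CPM in K/B.g7 and at 1.17 and 5.21 CPM in B.g7, a log2 fold change of 2.27 ± 0.21 (SE; adjusted p = 0.0421). The B.g7 library of 25 weeks was below the K/B.g7 library of 8 weeks, so the ages overlap across genotypes. The mural list that holds Myh11 summed to 251 and 302 CPM in K/B.g7 and 370 and 253 CPM in B.g7. Acta2 was at 88.8 and 222 CPM in K/B.g7 and 32.1 and 92.1 CPM in B.g7 (1.36 ± 0.18, SE; adjusted p = 0.120), and Tagln, the actin-binding transgelin, at 81.3 and 268 CPM and at 56.7 and 136 CPM (adjusted p = 0.120). Tpm2 was at 75.3 and 110 CPM and at 82.2 and 80.1 CPM (adjusted p = 0.904). Of 19 contractile and TGF-beta genes tested, 7 were higher and 1 lower without overlap, where 17.7% and 12.1% of all genes were. None passed, and the list summed to 2714 and 3959 CPM in K/B.g7 and to 2798 and 2786 CPM in B.g7. Cells with at least 2 UMIs of mural markers, a list that includes Myh11 itself, were a large part of the gate. They made up 24.9% and 20.8% of K/B.g7 fibroblasts and 41.3% and 35.2% of B.g7 fibroblasts. These cells held 82.1% and 70.2% of the Myh11 UMIs of K/B.g7 and 75.0% and 78.4% of those of B.g7. Without them Myh11 was at 2.02 and 16.3 CPM and at 0.571 and 1.83 CPM (2.68 ± 0.38, SE; adjusted p = 0.171).

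Gpm6a (chromosome 8, 54954843 to 55060871), which encodes a membrane glycoprotein of neurons, was at 3.85 and 17.3 CPM in K/B.g7 and 7.01 and 49.97 CPM in B.g7 (2.45 ± 0.22, SE; adjusted p = 0.0419). The epithelial galectin Lgals7 (chromosome 7, 28863853 to 28866284) was at 1.06 and 5.57 CPM and at 5.26 and 38.6 CPM (2.61 ± 0.22, SE; adjusted p = 0.0419). Mesothelial markers moved with them. That list of 10 summed to 13.8 and 41.9 CPM in K/B.g7 and 54.5 and 294 CPM in B.g7, with none of its members at 0 in all 4 libraries, and 3 of 10 higher without overlap, where 17.7% of all genes were. Its Upk3b, a uroplakin, was at 4.92 and 15.7 CPM and at 19.4 and 122 CPM (adjusted p = 0.101). Cells with at least 2 UMIs of the list made up 0.537% and 1.02% of K/B.g7 fibroblasts and 0.963% and 6.01% in B.g7. Without them Gpm6a was at 1.59 and 6.70 CPM in K/B.g7 and 2.52 and 1.55 CPM in B.g7 (adjusted p = 0.828), and Lgals7 at 0.777 and 3.18 CPM and at 1.70 and 3.26 CPM (adjusted p = 0.137). In cells with Xist alone Gpm6a was at 4.15 and 10.3 CPM in K/B.g7 and 5.0 and 2.65 CPM in B.g7 (adjusted p = 0.951). In the fit without mesothelial-marker cells 163 genes passed, 59 higher and 104 lower, among them Chad with a log2 fold change of 2.49 ± 0.24 (SE; adjusted p = 0.000812).

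Nos2, the inducible nitric oxide synthase (chromosome 11, 78920787 to 78960254), had 524 UMIs (19.2 CPM) and 3 UMIs in K/B.g7. In B.g7 it had 32 UMIs at 8 weeks (2.34 CPM) and none at 25 weeks, so that it was at least 27.7-fold higher at 8 weeks against a limit of 3 UMIs (adjusted p = 0.0169). Eef1a2, a translation elongation factor of muscle and neurons (chromosome 2, 181147653 to 181157014), was at 36.6 and 8.70 CPM in K/B.g7 and at 41.9 and 6.0 CPM in B.g7 (-2.48 ± 0.22, SE; adjusted p = 0.0419). It was at 2.39 and 0.924 CPM at 3 weeks. Ighg1, an immunoglobulin heavy chain of plasma cells, had 432 and 20 UMIs at 8 weeks and none at 25 weeks in either genotype (adjusted p = 0.0383). A single barcode held 43.0% of the immunoglobulin UMIs of the K/B.g7 fibroblasts of 8 weeks.

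Interferon and MHC genes were lower at 25 weeks in fibroblasts as well, with most of the difference in K/B.g7. Leukocyte markers in the same sums moved with them: the 12 macrophage markers summed to 78.6 and 27.3 CPM in K/B.g7 and 28.3 and 27.0 CPM in B.g7, with 4 of 10 tested lower without overlap and none at 0 in all 4 libraries. Cells with at least 2 UMIs of leukocyte markers were 7.39% and 2.00% of K/B.g7 fibroblasts and 4.92% and 4.38% of B.g7 fibroblasts. Without them H2-Eb1 was at 79.1 and 8.20 CPM in K/B.g7 and 20.9 and 12.7 CPM in B.g7 (log2 fold change -2.08 ± 0.57, SE; adjusted p = 0.308), and its values in all fibroblasts are given below. In the MHC class I list 14 of 15 members were lower without overlap, where 12.1% of all genes tested were, none passed, and the median log2 fold change was -1.52. H2-T23, which encodes the non-classical molecule Qa-1, was at 186 and 61.0 CPM in K/B.g7 and 139 and 55.5 CPM in B.g7 (-1.52 ± 0.19, SE; adjusted p = 0.0966). H2-Q4 was at 190 and 45.7 CPM and at 99.98 and 43.1 CPM (-1.69 ± 0.25, SE; adjusted p = 0.120). The class I sum went from 5557 to 1565 CPM in K/B.g7 and from 3044 to 1760 CPM in B.g7, after 1128 and 1124 CPM at 3 weeks.

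MHC class II in fibroblasts was at 568 and 61.9 CPM in K/B.g7 and at 92.7 and 84.0 CPM in B.g7 as a sum. Of 7 members tested 5 were lower without overlap, where 12.1% of all genes tested were, and none passed. H2-Eb1 was at 99.2 and 12.7 CPM in K/B.g7 and 23.1 and 17.2 CPM in B.g7 (-1.78 ± 0.58, SE; adjusted p = 0.459). Cd74, the invariant chain, was at 246 and 24.8 CPM in K/B.g7 and at 24.6 and 31.7 CPM in B.g7, so only the K/B.g7 library of 8 weeks stood apart. In endothelium the B.g7 libraries differed as well, as given above for the same genes. Whether the gates differ in this was not tested.

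The interferon-gamma list had 11 of 16 members lower without overlap and a median of -1.38, and the type I list 11 of 18 and -0.62. Of all genes tested 12.1% were lower without overlap, and no member of either list passed the threshold. Irgm1, an immunity-related GTPase, was at 35.2 and 14.3 CPM in K/B.g7 and 22.7 and 11.3 CPM in B.g7 (-1.21 ± 0.16, SE; adjusted p = 0.120). Gbp4 was at 18.2 and 0.614 CPM and at 4.89 and 0.845 CPM (adjusted p = 0.120). Cxcl9 was at 69.7 and 0.159 CPM in K/B.g7 and at 4.24 and 0.479 CPM in B.g7 (adjusted p = 0.206). The interferon-gamma sum was 938 and 256 CPM in K/B.g7 and 488 and 493 CPM in B.g7, so the sum was about level in B.g7 while 11 of its members were lower there.

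**Figure D4:**
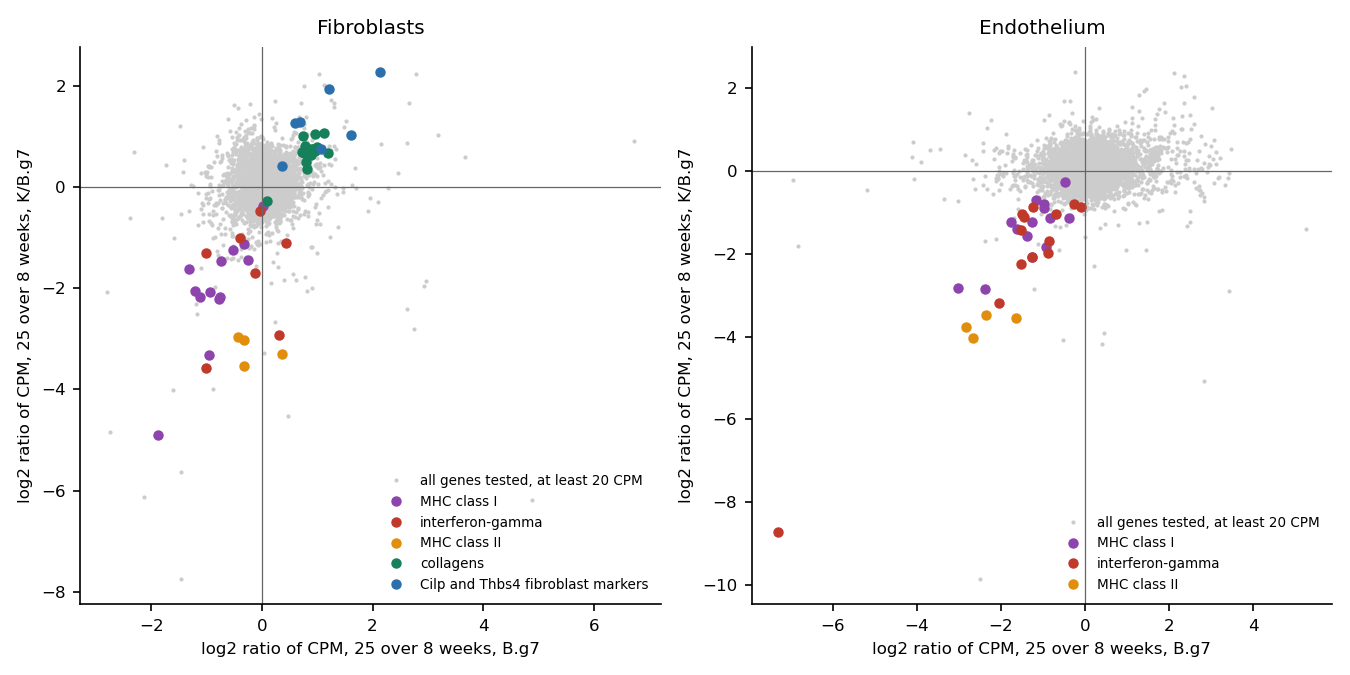
log2 ratio of CPM at 25 over 8 weeks in K/B.g7 (vertical axis) against the same ratio in B.g7 (horizontal axis), in fibroblasts (left) and endothelium (right), with 1 grey point per gene tested with a mean of at least 20 CPM and coloured points for members of the lists named in the key. Each ratio compares 1 library with 1 library; in endothelium, where only the 3 immune lists are drawn, the coloured points lie below 0 on both axes, and in fibroblasts the class II points lie low on the vertical axis and near 0 on the horizontal axis.

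Chemokines and enzymes of acute inflammation in fibroblasts showed the same leaning towards K/B.g7. Cxcl5, a neutrophil attractant, was at 55.9 and 1.93 CPM in K/B.g7 and at 23.6 and 3.52 CPM in B.g7 (-3.85 ± 0.49, SE; adjusted p = 0.103). Mmp3, the matrix protease stromelysin-1, was at 1072 and 21.5 CPM and at 60.9 and 22.2 CPM (adjusted p = 0.408). Vcam1, a ligand of lymphocyte integrins, was at 609 and 255 CPM and at 358 and 205 CPM (adjusted p = 0.262). Of 14 chemokine genes 5 were lower without overlap and none higher, and of 20 genes of cytokines and acute inflammation 7 were lower, Nos2 alone past the threshold, where 12.1% of all genes were lower without overlap.

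Circadian clock genes went both ways, and none passed in either gate. In fibroblasts 6 of 18 were lower and 4 higher without overlap, where 12.1% of all genes were lower and 17.7% higher. In endothelium 6 of 17 were lower and 3 higher, where 10.8% and 24% of all genes were. The output gene Dbp was at 224 and 87.7 CPM in K/B.g7 and 204 and 118 CPM in B.g7 (-1.13 ± 0.22, SE; adjusted p = 0.228), and the core activator Arntl at 9.65 and 20.6 CPM and at 10.2 and 15.7 CPM (0.81 ± 0.20, SE; adjusted p = 0.311). In endothelium Dbp was at 168 and 116 CPM and at 233 and 120 CPM (adjusted p = 0.506). The hour of dissection is not given in the labels.

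Proliferation genes were low at both ages. The list summed to 53.7 and 72.3 CPM in K/B.g7 fibroblasts and 66.7 and 84.5 CPM in B.g7, against 254 and 164 CPM at 3 weeks, and 9 of 17 members were higher at 25 weeks without overlap, where 17.7% of all genes were, with none past the threshold. Dlk1, an imprinted growth inhibitor, was at 0.110 and 0.954 CPM and at 0.365 and 4.31 CPM (adjusted p = 0.120). Cdkn2a, a marker of senescence, was at 4.29 and 0.50 CPM in K/B.g7 and 2.99 and 0.929 CPM in B.g7 (-2.45 ± 0.45, SE; adjusted p = 0.216), lower and not higher at the later age. In endothelium Cdkn2a was at 11.4 and 1.56 CPM and at 3.24 and 5.43 CPM. Of 13 senescence and p53 genes tested in fibroblasts, 2 were lower and 0 higher without overlap, where 12.1% and 17.7% of all genes were, and none passed.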

How the data were processed

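Live single cells of digested mitral valves were sorted and made into libraries by the 10x Genomics 3′ protocol, per the labels' protocols, and Cell Ranger 3.1.0 and the mm10 build are named in the submitters' processing notes. The authors deposited raw UMI counts, whole numbers for 31053 genes in each barcode. Neither the settings of cell calling nor the annotation release was given in the sources. Since reads were taken at the 3′ end and counted once per molecule, levels do not scale with gene length.

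UMIs were summed per library and gate. The test was the quasi-likelihood F test of edgeR 4.0.16 in R 4.3.3, with terms for genotype and age, filterByExpr as the filter and TMM scaling, at an adjusted p of 0.05. The standard error is the size of the log2 fold change over the square root of F. Both gates were defined by fixed thresholds, without clustering, and no doublet caller was run; leaving out marker-bearing cells and the 10% of cells with the most UMIs are among the alternatives. "Without overlap" means that both libraries of 25 weeks lay on 1 side of both of 8 weeks. Named genes were up to 10 per direction past the threshold with at least 20 CPM on average and 1 direction in both genotypes, filled up to 5 by smallest p, up to 4 members per list of smallest p, and 5 per direction with the largest difference between genotypes at 50 CPM or more; the rest of those past the threshold are named as well, and values are printed for part of the named genes. List members not found under a unique symbol were left out, and 1 gene is not reported here. The members and gene lists were chosen with earlier results of these data known.

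Simulated counts with 200 changed genes tested the procedure: at fibroblast depth (14278 genes) it called 37% of the 2-fold and 99% of the 4-fold changes, and at endothelial depth (11213 genes) 18% and 90%. It also called 6 and 11 unchanged genes, 0.0426% and 0.0999% of those unchanged. The simulation held planted changes and 1 level of scatter for all genes. Changed genes were drawn only from those above a minimum mean count, so recovery of genes with fewer UMIs was not measured. Each planted change was the same in both genotypes. How many of the 8 and 12 genes called in the data are false cannot be read from it. Limits: 1 library per genotype and age, an unknown number of mice, and reads of g7 alleles aligned to a reference of another haplotype in all libraries. Intervals and limits of a count of 0 cover counting error only. Gene positions are from GENCODE vM21 (mm10), with 30934 of the IDs matched. Tables and plots used pandas 2.3.3 and matplotlib 3.10.9 under Python 3.11.15, and DESeq2 1.42.0 was an alternative.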

Additional observations from a re-analysis of the deposited data

Results flagged for a closer look

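Of the genes named for the largest difference between the genotypes, those below had ratios of opposite sign in K/B.g7 and B.g7. Each ratio has 1 library on each side, and none of these differences was tested. Some genes changed little in K/B.g7, with log2 ratios in endothelium of -0.048 for Fndc1, 0.22 for Npr3, 0.27 for Sall1 and -0.28 for Adamtsl1. They are given as the log2 ratio of 25 over 8 weeks in K/B.g7 minus that in B.g7. In fibroblasts the difference was -4.99 for the neutrophil chemokine Cxcl2 (216 and 9.36 CPM in K/B.g7, 20.7 and 28.7 CPM in B.g7), -3.67 for Cd74 and -3.23 for Cxcl10 (140 and 18.5 CPM, 39.4 and 48.9 CPM). It was 1.88 for Polr2l, 1.86 for the Wnt modulator Sfrp2 (52.6 and 90.7 CPM, 195 and 92.7 CPM), 1.83 for the Notch target Hes1 (242 and 488 CPM, 475 and 269 CPM) and 1.72 for Fmo2.

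In endothelium the difference was -6.30 for Nppc, the C-type natriuretic peptide (194 and 26.2 CPM in K/B.g7, 7.04 and 76.0 CPM in B.g7), -3.73 for the iron-binding lipocalin Lcn2 (274 and 117 CPM, 36.0 and 204 CPM), -3.46 for Fndc1, -3.37 for the protease inhibitor Timp1 (185 and 49.0 CPM, 23.8 and 65.1 CPM) and -3.36 for Adamtsl1. It was 4.45 for Plagl1 (229 and 291 CPM, 510 and 29.4 CPM), 4.11 for Npr3, 3.99 for Enpp6 (71.0 and 103 CPM, 231 and 20.8 CPM) and 2.95 for Sall1. Of the last group, each gene was highest in the B.g7 library of 8 weeks, where 88.4% of endothelial cells had a UMI of Npr3 or H19, and lowest in that of 25 weeks, where 27.6% did. Npr3 itself defines that share together with H19, so its own match was in part fixed. The other genes were chosen for their difference in the same libraries.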

How the results depend on the processing

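Counts of genes past the threshold moved widely. In fibroblasts 8 genes passed as reported, 4 with all 6 libraries in 1 model, 0 without the genotype block (699 at an unadjusted p under 0.05), 130 with DESeq2, 496 without a filter on low counts, 30 with matrix genes at 2% of UMIs or more, 72 with stricter barcodes, 231 after thinning to 1000 UMIs per cell and 35 in cells with Xist. In endothelium 12 passed as reported, 28 with DESeq2 (11 of them shared with the 12), 1 with RLE factors, 429 without the filter, 1 with a stricter gate, 36 after thinning, 38 in cells with Xist and 0 without the cells of most UMIs (489 at an unadjusted p under 0.05). Alternatives chosen after seeing the data gave 16, 163 and 1 genes in fibroblasts without immune-marker, mesothelial-marker and mural-marker cells, and 0 in endothelium without immune-marker or mural-marker cells. With 1 library left out of the model of all ages, 187, 32, 296 and 63 genes passed in fibroblasts and 914, 1, 131 and 21 in endothelium without K/B.g7 at 8, K/B.g7 at 25, B.g7 at 8 and B.g7 at 25 weeks. In these fits the lone library of an age is assumed to vary like the others. The cause of these shifts was not tested.

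The direction was checked for 47 genes in fibroblasts and 38 in endothelium. These came from the same data, and each went 1 way in both genotypes there, so the choice in part fixed that few would reverse. A reversal means a change of sign in the fit over both genotypes. There were 3: in fibroblasts with Xist, Upk3b had a log2 fold change of -0.015 and Msln of -0.64, and in endothelium Mmrn1 had -0.16 without B.g7 at 8 weeks. H2-Eb1 in endothelium ranged from -3.91 to -2.21 and passed in 12 of 18 alternatives, and Chad from 2.22 to 2.82 and passed in 14 of 17. Other calls held less often. In endothelium Tpm2 ranged from 0.78 to 2.64 and passed in 5 of 18, Myl9 passed in 6 of 18 and Acta2 in 7 of 18. Cxcl10 ranged from -4.12 to -1.40 and passed in 9 of 18, as did H2-Ab1, and H2-DMb1 passed in 8 of 17. In fibroblasts Lgals7 passed in 8 of 16. These tallies include the fits with 1 library left out. No paired analysis was possible because the labels give no replicate numbers, and genotype was the block. Counts of 3 UMIs or fewer limit what can be said of Cxcl9 and Nos2 at 25 weeks.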
